A study of Danio rerio with 6 samples.

Results

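The genes described here code for the protein part of the cytosolic ribosome, the particle that translates nuclear-encoded mRNA. They were taken by gene symbol: rpl or rps followed by a number, rplp followed by a number, and rpsa, leaving out rps27l and the kinases and binding proteins whose names begin with rps6k or rps19bp. The rule found 80 of the 32520 genes in the tables, 48 of the large subunit (rpl and rplp) and 32 of the small subunit (rps and rpsa). It used names alone and no measured value.

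Each ribosome joins a small subunit, which binds the mRNA and reads its codons, to a large subunit, which forms peptide bonds. Cells make the proteins of both subunits in matched amounts, and their mRNAs, among the most abundant of a growing cell, mostly begin with a run of pyrimidines (the TOP motif) through which mTORC1 and Larp1 control their translation as a group. In zebrafish embryos, loss of single ribosomal protein genes is known to disturb growth and the formation of red blood cells, and in humans mutations of several of them cause Diamond-Blackfan anemia.

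The study compared 2 genotypes of the zebrafish (Danio rerio) by RNA sequencing of embryos aged 3 days post fertilization (dpf). The 3 bcas2-KO libraries came from embryos labelled as knockouts of bcas2, a gene whose product works in the spliceosome with Prp19, and the 3 WT libraries from wild-type embryos. Each library was made from 10 embryos pooled after genotyping, so variation between single embryos cannot be seen. The labels name neither the knockout allele nor the clutches, and p-values measure the spread between these pools. In RNA from whole embryos, fewer cells of a type and less RNA per cell cannot be told apart.

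Gene counts summed to between 32822716 and 40462653 in bcas2-KO libraries and between 35560010 and 49526995 in WT libraries. The targeted gene bcas2 (ENSDARG00000043631) had 3.54, 3.09 and 4.49 CPM in bcas2-KO libraries and 29.4, 27.9 and 27.4 CPM in WT libraries. CPM are counts scaled to a common library total that is adjusted by TMM factors, unless another scaling is named. The gene bcas2 was 7.65-fold lower in bcas2-KO libraries (log2 fold change -2.94, SE 0.13, adjusted p = 4.4e-06 by the edgeR quasi-likelihood test). Libraries bcas2-KO 3 and WT 1 stood apart from the other 4 in eye transcripts: the lens markers summed to 2.03, 1.36 and 237 CPM in bcas2-KO libraries 1 to 3 and to 299, 3.40 and 4.85 CPM in WT libraries 1 to 3. Photoreceptor markers summed to 2.69, 3.22 and 120.1 CPM in bcas2-KO libraries and to 244, 2.51 and 5.56 CPM in WT libraries. edgeR called 0 of 6 tested lens markers and 0 of 8 photoreceptor markers (0 at an unadjusted p under 0.05 and 0 by DESeq2). Markers of muscle, neurons, liver, heart and the other tissues of a whole embryo were detected in both genotypes.

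Markers of several tissues fell in bcas2-KO embryos. Over all genes tested 9.01% fell. Genes that fell were 3 of 6 for skin epithelium, 4 of 6 for red blood cells, 2 of 5 for cartilage, 5 of 5 for exocrine pancreas, and 2 of 4 for heart, beside 1 of 6 for neurons (median log2 fold change 0.01) and 0 of 6 for muscle and 0 of 5 for liver (0 of both at an unadjusted p under 0.05 and by DESeq2). Without the 2 libraries with eye transcripts 1 of 6 red blood cell, 4 of 5 exocrine pancreas and 0 of 4 heart markers fell. Of all genes tested 7.14% fell in this fit of 4 libraries. The skin markers summed to between 14547 and 18009.7 CPM in bcas2-KO and between 19800.2 and 21728 CPM in WT libraries, and the cartilage markers to between 2612 and 2947 CPM in bcas2-KO and between 3919 and 5040.4 CPM in WT libraries. The exocrine pancreas markers summed to between 35.0 and 55.1 CPM in bcas2-KO and between 153 and 174 CPM in WT libraries. No marker was at 0 in all libraries of a genotype, and the part of these tissues in the ribosomal protein values below was not tested. Where counts or named calls without the 2 libraries with eye transcripts are given, they stand beside their results or with the gene lists. Not every count or call was repeated in this way.

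Ribosomal protein mRNA as a whole differed little between the genotypes. The 80 genes together took 4.53%, 4.70% and 4.79% of all gene counts in bcas2-KO libraries and 4.81%, 4.84% and 4.55% in WT libraries, so the ranges overlapped. After scaling by TMM factors their summed level was 46168 ± 2778 CPM in bcas2-KO embryos and 48023 ± 1280 CPM in WT embryos (SD, n = 3 each), a ratio of 0.961. The ratio was 0.987 with library totals and 0.921 with upper-quartile factors, so its distance from 1 depended on the scaling. So did the overlap. With upper-quartile factors the sums were 42220, 46223 and 47147 CPM in bcas2-KO libraries and 47592, 50146 and 49417 CPM in WT libraries. Every bcas2-KO library was then below every WT library, while with TMM factors and with library totals the ranges overlapped.

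All 80 genes passed the filter on low counts, and edgeR called 5 of them changed at an adjusted p under 0.05. The genes rpl22 and rpl9 were higher in bcas2-KO embryos and rpl12, rps20 and rpl22l1 were lower. The share called was 6.25%, while 19.6% of all 22347 genes tested were called (10.6% higher and 9.01% lower). DESeq2 called 2 higher and 5 lower, adding rplp0 and rps2 to the lower genes. Without the 2 libraries with eye transcripts, edgeR called 1 higher (rpl9) and 5 lower (rpl12, rps20, rplp0, rplp1 and a second gene named rpl37), beside 16.3% of all genes called (9.14% higher and 7.14% lower).

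The level of a gene bears on how easily it is called, so genes with a mean of at least 100 CPM were taken as a second background, chosen after seeing the data. At this level edgeR called 4.11% of 73 ribosomal protein genes, beside 25.0% of all 1242 genes. The genotypes did not overlap in CPM for 16 of the 80 ribosomal protein genes (20%), beside 39.4% of all genes tested. Above 100 CPM the share without overlap was 16.4% for ribosomal protein genes, beside 44.1% of all genes.

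The fold changes lay close together. Their median was -0.01 on the log2 scale, beside -0.02 for all genes tested, with 36 positive and 44 negative. The quartiles were -0.07 and 0.06 for ribosomal protein genes, -0.28 and 0.21 for all genes, and -0.17 and 0.14 for all genes of at least 100 CPM. Of the 80 genes, 69 (86.2%) lay within 0.2 of no change, beside 43.0% of all genes and 58.1% of genes of at least 100 CPM. The median SE of a ribosomal protein gene was 0.08, that of all genes 0.14, and that of all genes of at least 100 CPM 0.09.

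**Figure D1:**
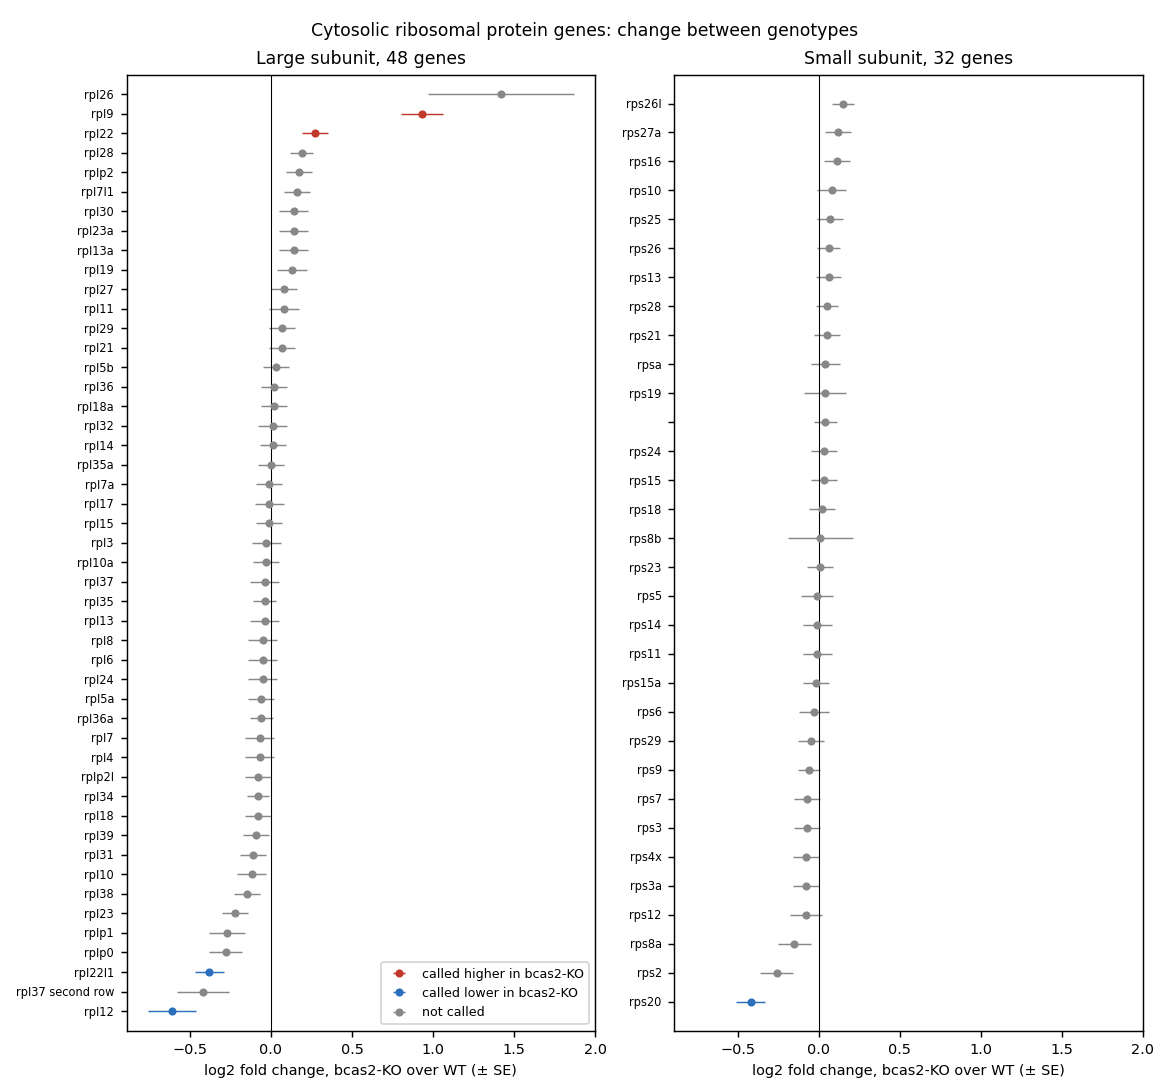
Log2 fold change (bcas2-KO over WT) of each of the 80 ribosomal protein genes, ordered within large and small subunit, with bars of 1 SE and called genes marked (1 gene is drawn without its name). Most of the points lie between -0.2 and 0.2, with rpl12, rps20 and rpl22l1 below and rpl22 and rpl9 above as the called genes.

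The subunits differed little from each other in these measures. edgeR called 8.33% of large and 3.12% of small subunit genes, beside 19.6% of all genes tested. Of the 48 large subunit genes 2 rose and 2 fell, with a median log2 fold change of -0.03 and quartiles of -0.08 and 0.08. Of the 32 small subunit genes 0 rose and 1 fell by edgeR (0 and 2 at an unadjusted p under 0.05, and 0 and 2 by DESeq2), with a median of 0.01 and quartiles of -0.06 and 0.05. The summed CPM of the large subunit over that of the small subunit was 1.35, 1.33 and 1.32 in bcas2-KO libraries and 1.3, 1.34 and 1.34 in WT libraries. Without the 2 libraries with eye transcripts, 1 large subunit gene rose and 4 fell, and 0 small subunit genes rose and 1 fell. The shares called in this fit were 10.4% of large and 3.12% of small subunit genes, beside 16.3% of all genes. The ranges of the ratio overlapped, and its means were 1.33 ± 0.0182 in bcas2-KO and 1.32 ± 0.0214 in WT embryos (SD, n = 3 each).

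Within a genotype, many ribosomal protein genes shared the order of the libraries, and part of that order depended on the scaling, which shifts all genes of a library alike. Among the 76 genes with a mean of at least 20 CPM, bcas2-KO library 1 was the lowest of the bcas2-KO libraries for 69 genes with TMM factors, for 69 with upper-quartile factors and for 52 with library totals. The median deviation of these genes from their own mean in that library was -0.107 on the log2 scale with TMM factors, -0.135 with upper-quartile factors and -0.0333 with library totals. In the WT libraries the order turned with the scaling: library 1 was lowest for 45 genes with TMM factors, while library 3 was lowest for 66 genes with library totals. Calls also depended on single libraries. Without bcas2-KO library 1 edgeR called 2 higher and 0 lower genes. Without WT library 2 it called 1 higher and 0 lower, and without WT library 1 it called 2 higher and 6 lower. The calls over all genes moved too, from 2369 higher and 2013 lower with all 6 libraries. They were 1179 and 795 without bcas2-KO library 1, 1013 and 717 without WT library 2, and 2813 and 2358 without WT library 1.

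**Figure D2:**
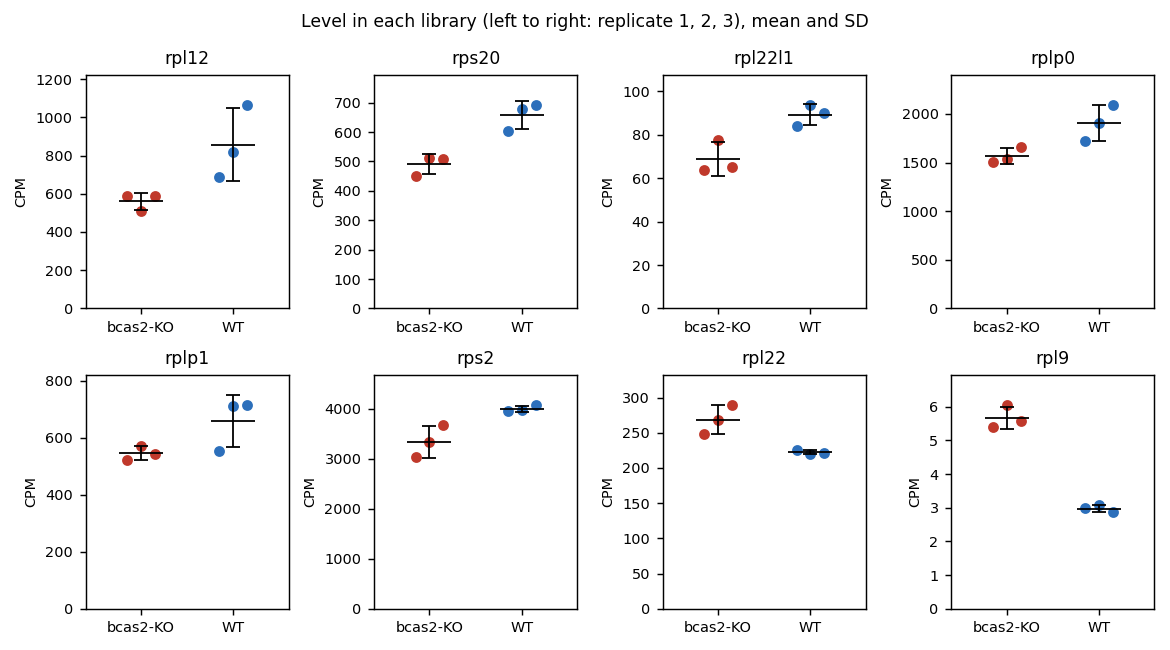
Level in CPM (axis from 0) of 8 ribosomal protein genes in the 3 bcas2-KO libraries (left) and the 3 WT libraries (right), each point being 1 library, with the mean and SD. The genotypes do not overlap for rpl12, rps20, rpl22l1, rplp0, rps2, rpl22 and rpl9, and they overlap for rplp1.

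Of 5 groups of genes formed by the place or disease of their proteins, that of the ribosomal stalk had the lowest median fold change. The stalk is the flexible arm of the large subunit that recruits and stimulates elongation factors. Rplp0 forms its base with Rpl12, and dimers of Rplp1 and Rplp2 hang from Rplp0. Of its 5 genes 1 fell by edgeR (3 at an unadjusted p under 0.05 and 2 by DESeq2) and 0 rose. The share called is close to the 19.6% of all genes called (10.6% higher and 9.01% lower). The median log2 fold change was -0.27. Without the 2 libraries with eye transcripts 3 of the 5 fell and 0 rose. Of all genes 16.3% were called in that fit (9.14% higher and 7.14% lower). The groups were formed with earlier results of these data known.

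The gene rpl12 (ENSDARG00000006691), which codes for the protein at the foot of the stalk, had 586, 508 and 587 CPM in bcas2-KO libraries and 689, 818 and 1064 CPM in WT libraries. The genotypes did not overlap, and the WT libraries spread widely. It fell in bcas2-KO embryos 1.53-fold (log2 fold change -0.61, SE 0.15, adjusted p = 0.0226 by edgeR). The call was lost without bcas2-KO library 1 (adjusted p = 0.0684), 2 (0.0778) or 3 (0.0602) or WT library 2 (0.0652), and held without the 2 libraries with eye transcripts (adjusted p = 0.0145 by edgeR, log2 fold change -0.77).

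The gene for the base itself, rplp0 (ENSDARG00000051783), had 1509, 1539 and 1664 CPM in bcas2-KO libraries and 1725, 1909 and 2091 CPM in WT libraries. Every bcas2-KO library was below every WT library, but the difference missed the threshold (log2 fold change -0.28, SE 0.10, adjusted p = 0.0691 by edgeR). It passed with DESeq2 (0.0283), with upper-quartile factors (0.0331), with library totals (0.0448), without WT library 1 (0.0218) and without the 2 libraries with eye transcripts (0.0451). In the RefSeq gene table rplp0 overlaps gusb, which codes for the lysosomal enzyme beta-glucuronidase and was lower in bcas2-KO embryos at 37.0 ± 0.667 CPM, against 73.7 ± 8.32 CPM in WT embryos (SD, n = 3 each; log2 fold change -0.99, adjusted p = 0.000192 by edgeR). The library kit as named does not mark strand, so reads from any stretch of exon that both genes share cannot be told apart. The overlap is of whole gene spans in another assembly, and overlap of exons was not examined. The gene gusb was chosen after its values were seen.

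The stalk's acidic proteins went separate ways in value, with none called. The gene rplp1 had 522, 569.5 and 544 CPM in bcas2-KO libraries and 554, 711 and 713 CPM in WT libraries, which overlapped (log2 fold change -0.27, SE 0.11, adjusted p = 0.101 by edgeR). Without WT library 1 its adjusted p was 0.00922, and without both libraries with eye transcripts 0.0382. Its partner gene rplp2 had 325, 338 and 358 CPM in bcas2-KO libraries and 285, 318 and 307 CPM in WT libraries, all bcas2-KO values being above all WT values (log2 fold change 0.17, adjusted p = 0.166 by edgeR). The paralog rplp2l averaged 334 CPM in bcas2-KO and 353 CPM in WT embryos, with overlap (log2 fold change -0.08, adjusted p = 0.538).

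In the small subunit the changed gene lay in the group of the mRNA entry site and the head, the part of the subunit that swivels during translocation. Of the 8 genes of this group 1 fell and 0 rose by edgeR (0 and 2 passed an unadjusted p under 0.05 as higher and lower, and DESeq2 also called 0 and 2), with a median log2 fold change of -0.06. The share called by edgeR was 12.5%, beside 19.6% of all genes. The gene rps20 (ENSDARG00000036044), which codes for a protein of the head, had 452, 511 and 509 CPM in bcas2-KO libraries and 604, 677 and 692 CPM in WT libraries. The genotypes did not overlap, and rps20 fell 1.34-fold (log2 fold change -0.42, SE 0.09, adjusted p = 0.0114 by edgeR). Its adjusted p was 0.0588 without bcas2-KO library 1, 0.061 without WT library 2, and 0.0182 without the 2 libraries with eye transcripts. In the RefSeq gene table rps20 overlaps the coding gene LOC110439952, whose values are not given here.

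The gene rps2 (ENSDARG00000077291) codes for a protein that lines the mRNA entry channel. It had 3025, 3335 and 3668 CPM in bcas2-KO libraries and 3951, 3974 and 4068 CPM in WT libraries. No bcas2-KO library reached the lowest WT library, yet the difference missed the threshold (log2 fold change -0.26, SE 0.10, adjusted p = 0.0886 by edgeR), and it passed with DESeq2 (0.0354) and with upper-quartile factors (0.0415), but not without the 2 libraries with eye transcripts (0.0823). The gene rps27a, which codes for a small subunit protein made as a fusion with ubiquitin, averaged 0.12 higher on the log2 scale without passing (adjusted p = 0.326 by edgeR).

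The pair rpl22 and rpl22l1 moved in opposite directions. Their proteins are paralogs that can take the same place on the surface of the large subunit, and in mouse Rpl22 is known to repress expression of Rpl22l1. The gene rpl22 (ENSDARG00000070437) had 248, 268 and 289 CPM in bcas2-KO libraries and 226, 219.8 and 222 CPM in WT libraries. The WT libraries were nearly level and all bcas2-KO libraries were above them, 1.21-fold higher on average (log2 fold change 0.27, SE 0.08, adjusted p = 0.04 by edgeR).

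The paralog rpl22l1 (ENSDARG00000010244) had 63.7, 77.6 and 65.1 CPM in bcas2-KO libraries and 84.0, 93.7 and 90 CPM in WT libraries. The genotypes did not overlap, and it fell 1.3-fold (log2 fold change -0.38, SE 0.09, adjusted p = 0.0217 by edgeR). Both calls were fragile to single libraries. That of rpl22 was lost without bcas2-KO library 2 (0.0959) or 3 (0.14), WT library 2 (0.14) or 3 (0.0764), with upper-quartile factors (0.087) and without the 2 libraries with eye transcripts (0.126). That of rpl22l1 was lost without bcas2-KO library 1 (0.107) or 3 (0.0839), WT library 2 (0.0952), and without the 2 libraries with eye transcripts (0.0644). Where leaving out 1 library lost the call, log2 fold changes were 0.22 to 0.27 for rpl22 and -0.34 to -0.31 for rpl22l1. Fewer of all genes were called in those fits than with all 6 libraries.

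Per length, the ratio of rpl22 to rpl22l1 in FPKM (fragments per kilobase of gene, scaled to the library) was 0.832, 0.737 and 0.946 in bcas2-KO libraries and 0.573, 0.5 and 0.526 in WT libraries. Every bcas2-KO ratio was above every WT ratio, and the means were 0.838 ± 0.105 in bcas2-KO and 0.533 ± 0.0369 in WT embryos (SD, n = 3 each), 1.57-fold apart. Per length, the paralog rpl22l1 thus made up 54.5% of the pair in bcas2-KO embryos and 65.3% in WT embryos. In CPM, which takes no account of length, its share was 20.4% in bcas2-KO and 28.6% in WT embryos. The lengths implied by the tables were 1672 bases for rpl22 and 356 for rpl22l1, so which paralog is the larger part depends on these lengths. The ratio of rpl22 to rpl22l1 within a library does not depend on the scaling between libraries, and it was given no test. In RefSeq rpl22 overlaps rnf207a, which had at most 0.0742 CPM in bcas2-KO and 0.431 CPM in WT libraries, was not tested because of its low counts, and was chosen after its values were seen.

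In other paralog pairs the ratios shifted less. The ratio of rplp2 to rplp2l was 1.29, 1.17 and 1.3 in bcas2-KO libraries and 1.06, 1.08 and 1.02 in WT libraries, again without overlap. The ratio of rps26 to rps26l was 1.38, 1.41 and 1.41 in bcas2-KO libraries and 1.56, 1.46 and 1.46 in WT libraries, where rps26l had 298, 321 and 322 CPM in bcas2-KO and 283, 285 and 282 CPM in WT libraries (log2 fold change 0.15, adjusted p = 0.179 by edgeR). The ratio of rpl5a to rpl5b averaged 1.17 ± 0.0311 in bcas2-KO and 1.24 ± 0.0479 in WT embryos, and that of rpl7 to rpl7l1 56.1 ± 5.15 in bcas2-KO and 66.0 ± 4.62 in WT embryos (SD, n = 3 each). The share of ratios without overlap among pairs of other genes was not measured, so nothing is read from how many of these pairs did not overlap. The ratio of rps8a to rps8b overlapped, at 138 ± 29.1 in bcas2-KO and 153 ± 17.6 in WT embryos. Reads of near-identical copies can be split or lost in counting, and the labels do not say how such reads were treated.

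**Figure D3:**
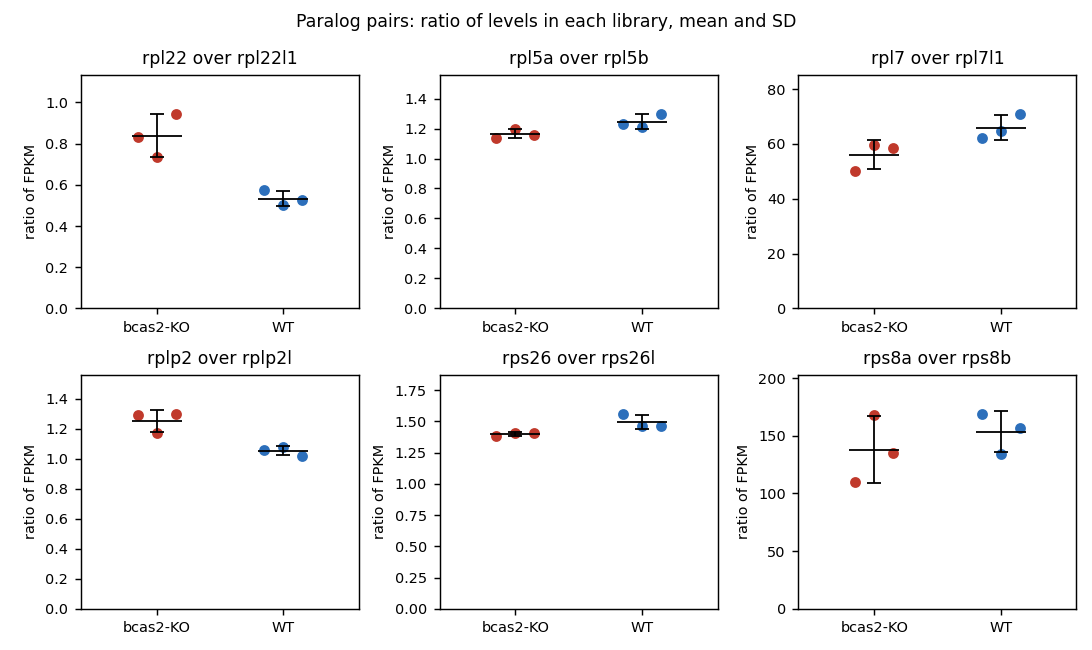
Ratio of the FPKM of the first to the second gene of 6 paralog pairs in each library, bcas2-KO left of WT, each point being 1 library, with the mean and SD. The ratio of rpl22 to rpl22l1 lies between 0.737 and 0.946 in bcas2-KO libraries and between 0.5 and 0.573 in WT libraries.

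The 5S particle had no gene that passed the test. Rpl5 and Rpl11 bind the 5S ribosomal RNA before joining the large subunit, and the free particle is known to bind and inhibit Mdm2. The gene rpl11 had 497, 565 and 593 CPM in bcas2-KO libraries and 505, 521 and 538 CPM in WT libraries, with overlap (log2 fold change 0.08, adjusted p = 0.55 by edgeR). The gene rpl5a gave -0.06 (adjusted p = 0.676) and rpl5b 0.03 (adjusted p = 0.834). At an unadjusted p under 0.05 and by DESeq2 the count was also 0 of 3. Of all genes tested edgeR called 19.6%.

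A list of 10 genes whose human counterparts are mutated in Diamond-Blackfan anemia lay close to no change. Of these 10 genes 0 were called by edgeR, beside 19.6% of all genes tested. At an unadjusted p under 0.05 and by DESeq2 the count was also 0. Their log2 fold changes ran from -0.07 to 0.15 with a median of 0.03. The list was formed with earlier results of these data known. It does not hold rpl26, rpl9 or rps20 (log2 fold changes 1.42, 0.93 and -0.42). Nor could it hold rps27.2 (log2 fold change 0.30, adjusted p = 0.0241 by edgeR), which the symbol rule left out. These genes are not a full account of what the list leaves out. The gene rps19, the first found in that disease, had 376, 486 and 473 CPM in bcas2-KO libraries and 502, 428 and 367 CPM in WT libraries. Its values overlapped fully (log2 fold change 0.04, adjusted p = 0.862 by edgeR). The red blood cell markers summed to 501, 703 and 556 CPM in bcas2-KO libraries and 1105, 1114 and 787 CPM in WT libraries, and their part in the levels of ribosomal protein genes was not tested.

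Of 7 genes for proteins around the exit of the peptide tunnel, where chaperones and the targeting machinery dock, edgeR called 0. Of all genes tested it called 19.6%. DESeq2 also called 0 of the 7, and at an unadjusted p under 0.05 1 was higher and 0 were lower. The gene at that unadjusted p was rpl26 (ENSDARG00000102317), which was listed at very low counts of 27, 18 and 25 in bcas2-KO libraries and 14, 4 and 11 in WT libraries. Its level was 0.654, 0.445 and 0.769 CPM in bcas2-KO and 0.274, 0.0937 and 0.329 CPM in WT libraries. The bcas2-KO values were all higher, with the largest fitted fold change of the 80 genes (log2 fold change 1.42, SE 0.45, adjusted p = 0.0528 by edgeR). It passed with library totals (0.0498), without the filter on low counts (0.0491) and on log2(FPKM + 1) (0.0363). Under most other alternatives it stayed uncalled, and the filter of 50 counts removed it. The main filter asks for about 10 counts in 3 libraries, and WT library 2 had 4. The gene thus entered the main test through the bcas2-KO libraries, where it was higher, and its passes are not read as support for a rise.

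Of the 80 genes, 4 had a mean under 20 CPM, while the other 76 lay between 35.6 and 3670 CPM. These 4 were rpl26, rpl9, rps8b and a second gene named rpl37 (ENSDARG00000076360). What reads at so low a level of ribosomal protein genes stand for, and whether reads of these genes were counted elsewhere, was not tested. Among the other 76 genes the fold changes ran from -0.61 to 0.27 on the log2 scale.

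The gene rpl9 (ENSDARG00000037350), which codes for a large subunit protein near the stalk, had 5.40, 6.04 and 5.57 CPM in bcas2-KO libraries and 2.98, 3.07 and 2.87 CPM in WT libraries. These rest on 223, 244 and 181 counts in bcas2-KO libraries and 152, 131 and 96 counts in WT libraries. It was 1.91-fold higher in bcas2-KO embryos (log2 fold change 0.93, SE 0.13, adjusted p = 0.00178 by edgeR), and this call held in all 17 alternatives that were run, with log2 fold changes from 0.75 to 0.97. The second gene named rpl37 is given the symbol COA1 in the Ensembl symbol table, so what it codes for is in doubt. It had 8.70, 9.95 and 9.14 CPM in bcas2-KO libraries and 9.53, 12.7 and 15.1 CPM in WT libraries (log2 fold change -0.42, adjusted p = 0.0917 by edgeR), and it passed without WT library 1 (0.0106) and without both libraries with eye transcripts (log2 fold change -0.57, adjusted p = 0.0348).

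Further members with a fold change among the 5 highest included rpl28, a surface protein of the large subunit. It had 468, 477 and 476 CPM in bcas2-KO libraries and 406, 434 and 409.7 CPM in WT libraries. The bcas2-KO libraries lay close together and all above WT, but the gene did not pass (log2 fold change 0.19, adjusted p = 0.102 by edgeR). The gene rps6, whose protein is the best known phosphorylation target of the S6 kinases, had 957, 1028 and 1118 CPM in bcas2-KO libraries and 1013, 1076 and 1069.8 CPM in WT libraries, with overlap (log2 fold change -0.03, adjusted p = 0.867). The gene rpsa, whose protein lies on the back of the small subunit and is also known as a laminin receptor, gave 0.04 (adjusted p = 0.793).

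Per length, ribosomal protein genes differed widely in level. The highest mean over the 6 libraries was that of rps2, at 5049.5 ± 467 FPKM in bcas2-KO and 6112 ± 137 FPKM in WT embryos (SD, n = 3 each). It was followed by rpl6 with 3299 ± 149 FPKM in bcas2-KO and 3467 ± 280.2 FPKM in WT embryos, by rps15 with 3319 ± 156 FPKM in bcas2-KO and 3278 ± 78.6 FPKM in WT embryos, and by rplp0 with 2939.8 ± 142 FPKM in bcas2-KO and 3615 ± 375 FPKM in WT embryos. The fifth was rpl7 with 2483 ± 158 FPKM in bcas2-KO and 2639 ± 142 FPKM in WT embryos.

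The median gene lay at 986 FPKM, and the medians of large and small subunit genes were 997 and 979 FPKM. Along the order of levels, 72 of 79 neighbours had ranges over the 6 libraries that overlapped, so these ranges do not separate most neighbours. The ranges pool libraries and genotypes, and overlap does not exclude a steady order within libraries. For example, rps15a was above its neighbour rps16 in each of the 6 libraries, though their ranges overlapped. How many neighbours kept such an order was not counted. The 7 breaks without overlap included those between rps2 and rpl6, between rplp0 and rpl7, between rpl13 and rps3, and between rps18 and rpl34. The others stood on both sides of rpl7l1, the last gene above the 4 scarce ones, and between the second gene named rpl37 and rpl26. FPKM uses the authors' gene lengths, and the lengths implied by the tables ran from 157 to 2779 bases with a median of 560, so a long annotated length lowers the value of a short mRNA.

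**Figure D4:**
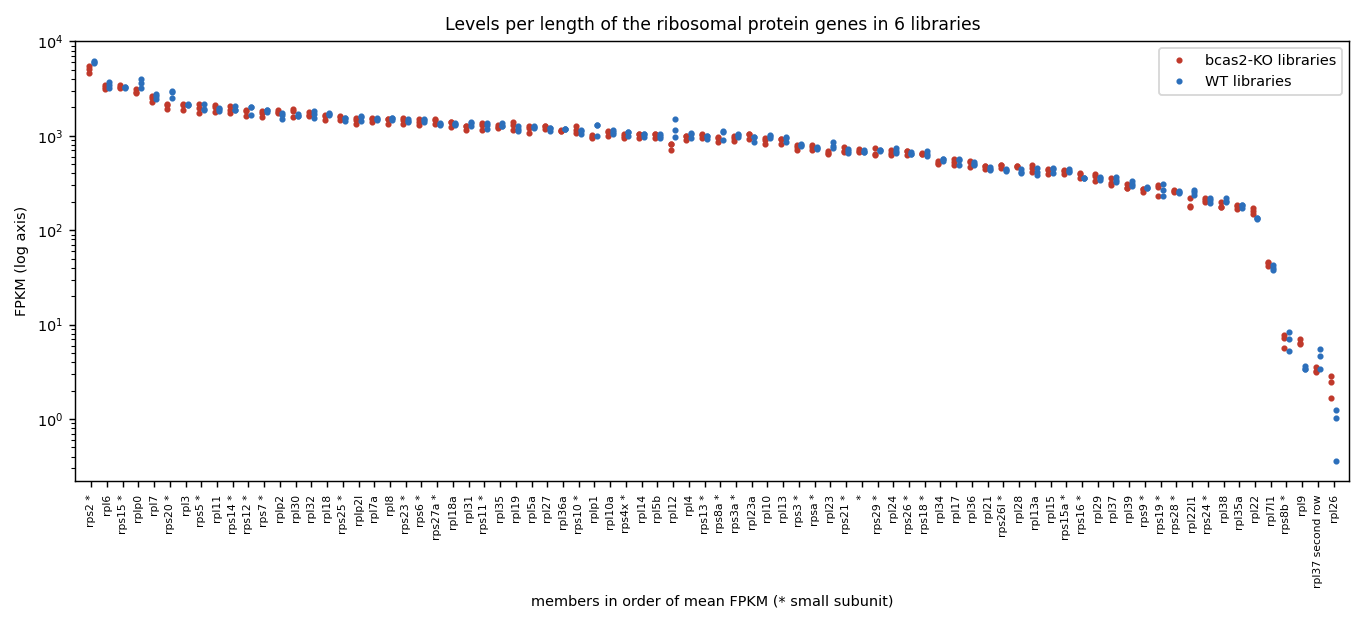
FPKM (log axis) of the 80 ribosomal protein genes in each library, in order of their mean, bcas2-KO libraries left of WT libraries at each gene and small subunit genes marked with an asterisk (1 of them without its name). The levels decline gradually after rps2, which has means of 5049.5 FPKM in bcas2-KO and 6112 FPKM in WT embryos, and drop steeply at rpl7l1 and the 4 scarce genes.

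Many ribosomal protein genes carry small nucleolar RNAs (snoRNAs), which guide the modification of ribosomal RNA, in their introns. By the RefSeq table, in which 78 of the 80 genes were matched by symbol, 21 genes held 56 snoRNA genes. Of these hosts 0 rose and 2 fell by edgeR (rpl12 and rps20; 0 and 2 at an unadjusted p under 0.05, and 0 and 2 by DESeq2), with a median log2 fold change of -0.04, 5 positive and 16 negative. Of the 57 matched genes without a snoRNA gene 2 rose and 1 fell, with a median of 0.01. The shares called were 9.52% of hosts and 5.26% of the 57 genes, beside 19.6% of all genes. Without the 2 libraries with eye transcripts 0 hosts rose and 2 fell, and of the 57 genes 1 rose and 2 fell. The shares called in this fit were 9.52% of hosts and 5.26% of the 57 genes, beside 16.3% of all genes. On the chromosome of bcas2 lay 3 of the genes, rpl6, rps8b and rpl10a, the nearest of them 154 genes away in that assembly.

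Ribosomal proteins that the symbol rule left out were read beside them. Of 7 such genes tested 2 rose, 0 fell, and the median log2 fold change was 0.13 (2 higher and 0 lower also at an unadjusted p under 0.05 and by DESeq2). The share called was 28.6%, beside 19.6% of all genes, and rests on these 7 genes. The gene rps27.2 had 251 ± 6.58 CPM in bcas2-KO and 204 ± 12.0 CPM in WT embryos (SD, n = 3 each; log2 fold change 0.30, adjusted p = 0.0241 by edgeR). The gene rps27l, whose protein resembles Rps27, had 37.8 ± 0.606 CPM in bcas2-KO and 29.6 ± 1.70 CPM in WT embryos (SD, n = 3 each; log2 fold change 0.35, adjusted p = 0.0139 by edgeR). The gene RPL37A, written in capitals and chosen after its values were seen, gave 0.02 (adjusted p = 0.908 by edgeR).

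Genes that help to build the ribosome were higher where they passed the test. Of 58 chaperones of ribosomal proteins and subunit assembly factors 14 rose and 0 fell by edgeR (24 and 1 at an unadjusted p under 0.05, and 15 and 0 by DESeq2), with a median log2 fold change of 0.18. The called share of 24.1% stands beside 19.6% of all genes, of which 10.6% were higher. The gene gnl3, which codes for the nucleolar GTPase nucleostemin, had 60.4 ± 3.79 CPM in bcas2-KO and 35.6 ± 2.42 CPM in WT embryos (SD, n = 3 each; log2 fold change 0.76, adjusted p = 0.000525 by edgeR). The helicase gene ddx56 had 28.8 ± 1.80 CPM in bcas2-KO and 17.5 ± 1.05 CPM in WT embryos (SD, n = 3 each; log2 fold change 0.72, adjusted p = 0.00114 by edgeR). The difference between these genes and the ribosomal protein genes was not tested.

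Of 23 genes of mTORC1 and of proteins that bind TOP mRNAs 8 rose and 0 fell by edgeR (11 and 1 at an unadjusted p under 0.05, and 8 and 0 by DESeq2), with a median of 0.22. The called share of 34.8% stands beside 19.6% of all genes (10.6% higher and 9.01% lower). The gene larp4ab, of a family that binds mRNA tails, had 39.6 ± 3.69 CPM in bcas2-KO and 21.8 ± 1.08 CPM in WT embryos (SD, n = 3 each; log2 fold change 0.86, adjusted p = 0.000474 by edgeR). The gene tsc1a, whose protein, hamartin, restrains mTORC1, had 55.7 ± 3.71 CPM in bcas2-KO and 38.5 ± 0.172 CPM in WT embryos (log2 fold change 0.53, adjusted p = 0.002 by edgeR). The 8 genes that rose were larp1, larp1b, larp4aa, larp4ab and larp4b, of the La-related family, and tsc1a, tsc2 and akt1s1, which code for inhibitors of mTORC1. The genes mtor, rptor and mlst8, which code for its subunits, and rheb and rhebl1, of its activators, were not called. For rhebl1 the log2 fold change was 0.25 (adjusted p = 0.0583 by edgeR), and the genotypes did not overlap. Also not called were the inhibitor genes tsc1b (log2 fold change 0.16, adjusted p = 0.238 by edgeR) and deptor (0.1, adjusted p = 0.555 by edgeR). The genes called were named after their values were seen.

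Translation factors moved in both directions. Of 15 elongation factor genes 3 rose and 1 fell, with a median of 0.18. Those that rose included eef2a.1 at 58.6 ± 5.37 CPM in bcas2-KO and 32.2 ± 1.38 CPM in WT embryos (SD, n = 3 each, log2 fold change 0.86, adjusted p = 0.000325 by edgeR). Another was eef1a1a at 12.3 ± 1.96 CPM in bcas2-KO and 7.31 ± 0.841 CPM in WT embryos (log2 fold change 0.75, adjusted p = 0.00729 by edgeR). The gene that fell was eef2b at 3709 ± 84.4 CPM in bcas2-KO and 4649 ± 52.6 CPM in WT embryos (log2 fold change -0.33, adjusted p = 0.024 by edgeR). It was named after its values were seen. Of 51 initiation factors and poly(A) binding proteins 12 rose and 4 fell, with a median of 0.13. The share called was 31.4% here and 26.7% for elongation factors, beside 19.6% of all genes. Those that fell included pabpc1b, which codes for a poly(A) binding protein, at 81.5 ± 5.11 CPM in bcas2-KO and 140.1 ± 15.5 CPM in WT embryos (log2 fold change -0.78, adjusted p = 0.000937 by edgeR). They also included eif3hb, which codes for a subunit of eIF3, at 3.05 ± 0.506 CPM in bcas2-KO and 9.23 ± 1.69 CPM in WT embryos (log2 fold change -1.59, adjusted p = 0.00061 by edgeR).

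Mitochondrial ribosomal protein genes, which serve the separate ribosome of mitochondria, had a median log2 fold change of 0.00, beside -0.02 for all genes tested. Of 74 genes 5 rose and 4 fell (12.2% called, beside 19.6% of all genes). The gene mrpl9 had 17.0 ± 1.66 CPM in bcas2-KO and 11.0 ± 0.541 CPM in WT embryos (SD, n = 3 each; log2 fold change 0.62, adjusted p = 0.00381 by edgeR). Genes of S phase, read as a sign of dividing cells, went lower where they passed, with 5 of 23 fallen and 0 risen by edgeR (7 and 2 at an unadjusted p under 0.05, and 6 and 0 by DESeq2). The share of S phase genes called was 21.7%, beside 19.6% of all genes (9.01% lower). Among them pcna, the sliding clamp of DNA replication, had 167 ± 2.62 CPM in bcas2-KO and 223 ± 8.79 CPM in WT embryos (SD, n = 3 each; log2 fold change -0.42, adjusted p = 0.00419 by edgeR).

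Without the 2 libraries with eye transcripts fewer genes of these lists passed. Fewer of all genes passed too, at 16.3% (9.14% higher and 7.14% lower) beside 19.6% with all 6 libraries. This fit rests on 4 libraries, and the part of the eye transcripts in the lost calls was not tested. Of the assembly factors 11 rose and 0 fell, of the mTORC1 and TOP list 6 and 0, of the initiation factors and poly(A) binding proteins 6 and 3, of the elongation factors 2 and 0, of the ribosomal proteins outside the rule 1 and 0, and of the mitochondrial ribosomal proteins 1 and 2. Of the S phase genes 0 rose and 4 fell.

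**Figure D5:**
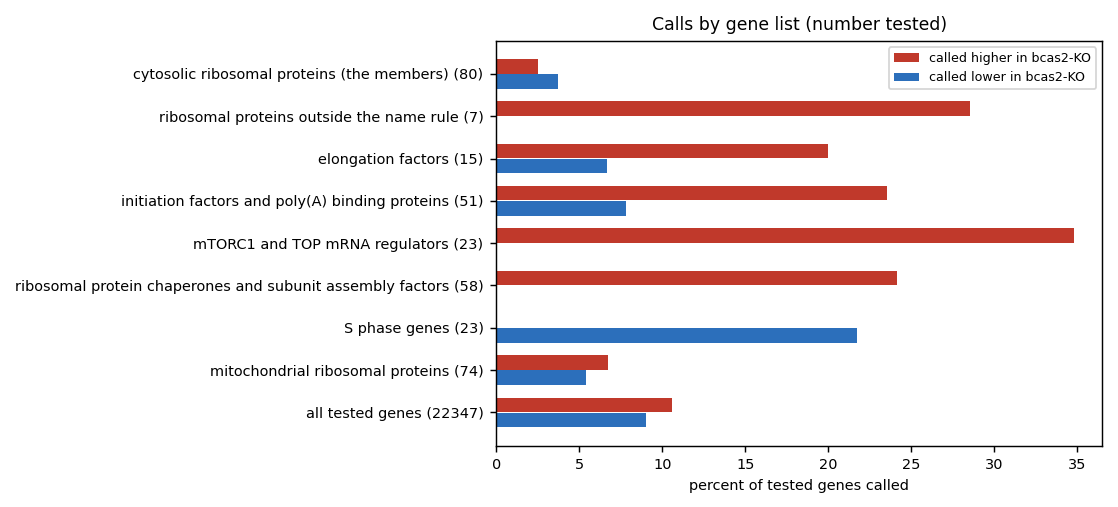
Percent of the tested genes of each list that edgeR called higher (upper bar) and lower (lower bar) in bcas2-KO embryos, with the number tested in brackets and all tested genes in the last row. Of 80 ribosomal protein genes 2 are higher and 3 lower, while the assembly factors and the mTORC1 and TOP list have higher genes (14 of 58 and 8 of 23) and 0 lower ones.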

How the data were processed

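For each Ensembl gene and library the authors deposited a raw count of reads and an FPKM value. Per the submitters' processing notes, the build was GRCz11 (danRer11), and the tools were DESeq2 1.22.1, StringTie 1.3.3b, featureCounts 1.6.0, STAR 2.6.1a and cutadapt 1.15. The role of each tool, the annotation release, the strand setting and the treatment of multiply mapped reads are all not given in the sources used here. Per the labels' protocols, total RNA was extracted with TRIzol and made into libraries with the NEBNext Ultra kit, which as named does not mark strand.

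Genes were kept with filterByExpr of edgeR 4.0.16 (R 4.3.3) at a minimum count of 10, leaving 22347 genes, scaled by TMM factors and compared by the quasi-likelihood test (robust, two-sided, genotype alone, Benjamini-Hochberg over all genes tested, called under 0.05). The SE is the absolute log2 fold change over the root of the F statistic. A floor of 3 counts is 0.0587 to 0.0923 CPM, and covers counting error only. The procedure was tested on simulated data. Alternatives were DESeq2 1.42.0, other scalings, other filters, limma 3.58.1 on log2(FPKM + 1) and log2(FPKM + 0.1), a replicate block and left-out libraries. RefSeq's table of GRCz12tu served for names, order and overlaps only, and sequences were not used here.

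The members and lists were chosen with earlier results of these data known. Named are bcas2, called members, the 5 highest and 5 lowest fold changes, the 5 highest FPKM, paralog pairs and 10 members of known role. Of each other list the 2 smallest p were to be named, and not all of these are given. Structural groups, the background at 100 CPM, the library order by scaling and the group counts in 4 libraries were added after seeing the data. Values of 1 gene named on its own are not reported here.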

Additional observations from a re-analysis of the deposited data

How the results depend on the processing

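Counts of called ribosomal protein genes (2 higher and 3 lower) depended on the setting. DESeq2 called 5 lower, upper-quartile factors 1 higher and 6 lower, and the 4 libraries without lens transcripts 1 higher and 5 lower. Upper-quartile factors also turned the split of all called genes to 1746 higher and 2625 lower, against 2369 higher and 2013 lower with TMM factors. Leaving out 1 library at a time gave 1 to 2 higher and 0 to 6 lower ribosomal protein genes, 1013 to 2813 higher and 717 to 2358 lower genes over all, a median log2 fold change of ribosomal protein genes between -0.031 and 0.038, and a large minus small subunit difference of medians between -0.04 and -0.014 (-0.045 with all 6). The 0 lower genes arose without bcas2-KO library 1 and without WT library 2. Over all genes 795 and 717 were lower in these fits, against 2013 with all 6 libraries. The ratio of summed CPM ran from 0.921 to 0.987 over the scalings.

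With a replicate block 3 ribosomal protein genes were higher and 7 lower. The genes that gained a call were rpl26 (adjusted p = 0.0316), rplp0 (0.0196), rplp1 (0.0415), rps2 (0.0308) and rpl23 (0.0398) by edgeR. The labels do not say that numbers pair the pools. Deviations of same-numbered libraries from their genotype means correlated at -0.143, 0.375 and 0.013. These values have no reference to be judged by, and whether the pools are paired was not tested. bcas2-KO 2 correlated best with WT 2, while bcas2-KO 1 and 3 correlated best with WT 3 and 1.

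For 29 named genes under 492 alternatives in all, 436 kept direction and side of the threshold, 16 lost the call, 18 gained it and 22 changed sign, each in a gene not called. With upper-quartile factors rpl5b came to -0.03, rps15 -0.03, rps19 -0.02, rps26 -0.00, rps8b -0.05 and rpsa -0.02, and with library totals rps6 to 0.01. The filter of 50 counts put rps8b at -0.00. Leaving out 1 library at a time, log2 fold changes ran from -0.1 to 0.02 for rpl5a, -0.01 to 0.09 for rpl5b, -0.01 to 0.07 for rps15, -0.07 to 0.17 for rps19, -0.08 to 0.03 for rps6, -0.14 to 0.18 for rps8b and -0.01 to 0.1 for rpsa. Without both lens libraries, rps8b was -0.17, rps15 -0.01 and rpsa -0.01. The gene rpl26 gave no value under the stricter filter. The causes of these shifts were not tested, and 3 pools per genotype limit what any of them can show.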
